A study of Homo sapiens with 2 samples.

Results

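LINC names are gene symbols given to long intergenic non-coding RNAs, and 251 of them carried a value in the 2 RNA libraries of 95D cells examined here, out of 9253 names of every kind with a value. The members are all names made of LINC and a number, without an -AS ending, that had a number and not a blank mark in their rows. The tables listed 2220 such names, and none of them ended in -AS. 95D is an established human lung cancer cell line, wild type per the labels. Cells were grown for 24 h in complete medium and then for 48 h in medium that lacked glucose (the glucose-deprived library) or glutamine (the glutamine-deprived library), with dialyzed serum in both. Each condition is 1 library, so there is no replicate check, no p-value is given, and every difference below is a difference between these libraries. The series is titled as a study of RNAs that interact with ALKBH5, which takes the m6A mark off RNA, but neither sample is labelled as a pull-down or as its input.

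Long intergenic non-coding RNAs are made by RNA polymerase II from DNA between protein-coding genes, and most are spliced, capped and polyadenylated like messenger RNAs without coding for a long protein. As a class they are known for low levels and for being restricted to few tissues or cell states. The number after LINC is assigned in nomenclature and says nothing of function. Some have been studied closely in tumours, and a few turned out to encode short peptides and were renamed.

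Few LINC transcripts carried any value. Of 13049 rows listed under a LINC name, each standing for 1 transcript, 432 had a value, or 3.31%, where 20.3% of all rows in the tables did. Counted by name, 251 of 2220 LINC names had a value, or 11.3%, where 31.7% of all names did. Antisense names, which end in -AS and are the most similar group of named non-coding RNAs, had a value in 9.09% of rows and 24.97% of names. Loci known by an Ensembl ID alone had one in 9.39% of rows and 14.6% of names, and names that are protein-coding symbols in 39.2% of rows and 57.3% of names. All rows are headed as long non-coding RNA names. Here and below, a row under a protein-coding symbol may therefore not stand for the messenger RNA of that gene. LINC names therefore had the lowest share of both rows and names among the kinds of name compared here. Yet they had more listed rows per name than the table as a whole, with means of 5.88 and 3.14. A row carried a value only where it stood above 0 in at least 1 library. The lowest LINC value above 0 without glutamine was 1.56, or 2 recovered reads, so a blank may not always mean 0 reads. These shares describe the tables, with no test.

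**Figure D1:**
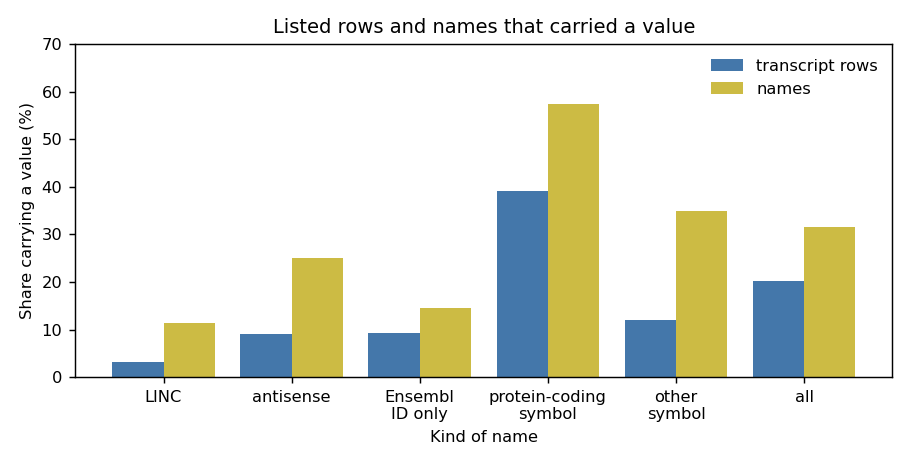
Share of listed transcript rows (blue) and of listed names (yellow), in percent, that carried a value, by kind of name; unnamed loci, all of which carried values, are left out of the kinds but counted under all. LINC names stand lowest for rows at 3.31% and for names at 11.3%.

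The gene starts of LINC names with a value held more CpG pairs than those of LINC names without one. RefSeq start windows of 300 bases, from 250 before to 50 after the start, were matched for 179 of the 251 members and for 1299 LINC names without a value. The median number of CpG pairs was 11.0 (quartiles 4.0 to 25) for the former and 3.0 (2.0 to 8.0) for the latter, and it was 13.0 over all 27305 windows. At least 20 CpG pairs were found in 36.3% of windows of members, in 8.47% of windows of LINC names without a value and in 41.0% of all windows. The GC box GGGCGG, a motif bound by Sp1-type factors, was found on either strand in 41.9%, 14.9% and 44.5% of these windows in the same order. For the TATA box TATAAA the shares were 11.2%, 17.5% and 12.02%. In base content at the start, members thus lay nearer to the average gene than to the other LINC names. A motif found here is a match of letters and does not show binding, and the comparison was made after values were seen.

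**Figure D2:**
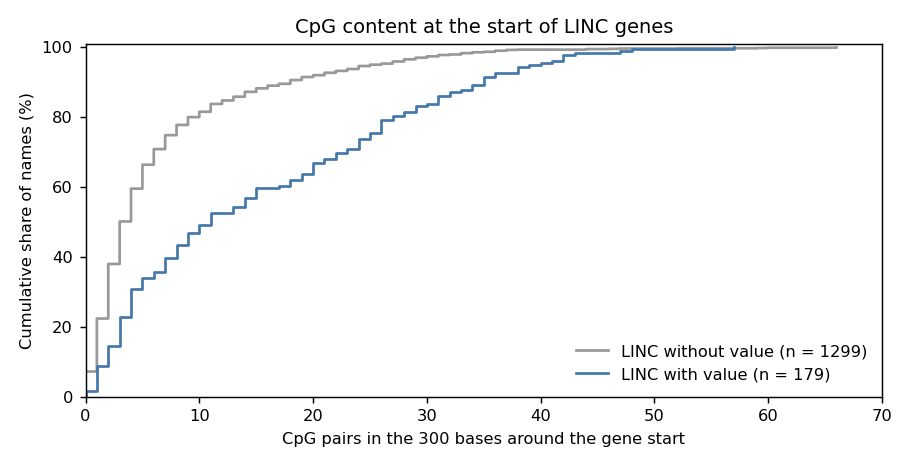
Cumulative share of LINC names, in percent, against the number of CpG pairs in the 300 bases around the RefSeq gene start, for names with a value (blue, n = 179) and without (grey, n = 1299). The grey curve climbs earlier, with a median of 3.0 CpG pairs against 11.0.

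The start windows of 5 members the results below turn on are printed here. They held 10 to 42 CpG pairs and do not cover the low end of the members, whose lower quartile was 4.0. The first pair belongs to the members with a row above 0 in both libraries, the next to the member highest without glucose, the fourth to a lung cancer RNA seen in both libraries, and the last to the member with the highest value without glutamine. Sequences are from RefSeq, build GRCh38.p14, written along the strand of the gene. Capitals mark GGGCGG or its complement CCGCCC, and the cAMP response element TGACGTCA. Which transcript a row of the tables holds is not stated, so a row may start elsewhere.
LINC01145, chr1:145216003-145216302, minus strand: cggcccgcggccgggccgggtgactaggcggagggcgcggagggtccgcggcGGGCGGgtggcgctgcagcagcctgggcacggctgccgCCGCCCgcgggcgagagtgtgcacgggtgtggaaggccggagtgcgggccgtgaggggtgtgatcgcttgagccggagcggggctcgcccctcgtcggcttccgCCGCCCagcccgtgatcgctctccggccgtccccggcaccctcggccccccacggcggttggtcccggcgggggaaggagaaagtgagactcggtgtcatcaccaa
LINC00886, chr3:156817013-156817312, minus strand: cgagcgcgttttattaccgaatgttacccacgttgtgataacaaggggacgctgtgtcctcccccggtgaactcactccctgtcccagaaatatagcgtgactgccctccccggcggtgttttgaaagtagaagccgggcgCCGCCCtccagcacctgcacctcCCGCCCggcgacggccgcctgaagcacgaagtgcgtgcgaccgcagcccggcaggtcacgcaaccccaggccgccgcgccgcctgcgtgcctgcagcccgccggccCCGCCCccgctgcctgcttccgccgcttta
LINC00630, chrX:102768903-102769202, plus strand: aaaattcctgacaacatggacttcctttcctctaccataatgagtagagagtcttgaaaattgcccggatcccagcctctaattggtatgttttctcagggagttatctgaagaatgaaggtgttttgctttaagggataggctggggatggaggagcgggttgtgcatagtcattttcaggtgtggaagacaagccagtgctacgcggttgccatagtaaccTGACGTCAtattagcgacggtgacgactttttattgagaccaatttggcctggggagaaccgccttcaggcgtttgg
LINC01123, chr2:109986730-109987029, plus strand: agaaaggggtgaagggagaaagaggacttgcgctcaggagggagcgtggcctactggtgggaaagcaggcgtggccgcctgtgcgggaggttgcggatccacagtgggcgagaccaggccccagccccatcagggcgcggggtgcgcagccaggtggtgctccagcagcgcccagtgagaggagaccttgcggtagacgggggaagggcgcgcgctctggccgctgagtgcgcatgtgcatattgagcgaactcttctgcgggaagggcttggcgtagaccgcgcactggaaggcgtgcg
LINC00662, chr19:27793891-27794190, minus strand: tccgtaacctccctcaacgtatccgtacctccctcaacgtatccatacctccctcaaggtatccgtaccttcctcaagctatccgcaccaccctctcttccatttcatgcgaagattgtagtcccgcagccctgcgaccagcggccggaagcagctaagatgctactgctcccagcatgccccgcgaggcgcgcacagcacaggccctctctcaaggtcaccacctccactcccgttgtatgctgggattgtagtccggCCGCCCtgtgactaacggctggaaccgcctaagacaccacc

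The windows of LINC01145 and LINC00886 held 42 and 35 CpG pairs and 3 GC boxes each. LINC00662 had 20 CpG pairs and 1 GC box, and LINC01123 had 25 CpG pairs and neither motif. LINC00630 had 10 CpG pairs, no GC box and 1 cAMP response element, a motif found in 2.79% of members' windows and 1.97% of all windows. The E-box CACGTG was in none of these 5 windows, and in 7.26% of members' windows and 7.41% of all windows.

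In the glucose-deprived library 7 of the 251 LINC names stood above 0, or 2.79%, where 4.25% of all names did. In the glutamine-deprived library 249 did, where 99.5% of all names did. The values carry no stated unit. They climb in equal steps as whole reads times 1 factor per library would, and reads recovered from the steps are given with them. The steps differ 1.60-fold and are near reciprocals of each other, with a product of 1.00, as would follow from scaling both libraries to 1 common size. Whether the authors did so is not stated. The recovered reads are those of the listed transcripts and not the depth of a whole library. The values are not divided by transcript length, so an order of names by value is one of read signal and not of molecules. In these bulk libraries fewer cells expressing a gene and less RNA per cell cannot be told apart. The labels do not say either whether a value reflects the level of an RNA or its recovery in a pull-down.

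LINC00630 was the highest member without glucose, at 158 in the glucose-deprived library, or 125 reads, and at 235 in the glutamine-deprived library. It lies on chromosome X, 102769153 to 102964523, and its span overlaps that of the protein-coding ARMCX5-GPRASP2, which was listed at 0 without glucose and stood at 18.2 without glutamine. Whether exons or strands overlap was not tested. LINC01828, on chromosome 2, 67086446 to 67289244, stood at 137 without glucose, or 108 reads, and was listed at 0 without glutamine. LINC00886, on chromosome 3, 156747343 to 156817062, 9291 bases from LEKR1, stood at 84.7 and 39.5. LINC01123, an RNA studied in lung cancer for promoting glycolysis, lies on chromosome 2, 109986980 to 109995281, and stood at 62.0 and 44.3. These 4 had the highest values without glucose, and only LINC00630 among them was higher without glutamine on the deposited scale.

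LINC01145, on chromosome 1, 145164099 to 145216052, stood at 48.1 without glucose and at 86.9 without glutamine. LINC02201, on chromosome 5, 122628952 to 122730560, also stood at 48.1 without glucose, both resting on 38 reads, and was listed at 0 without glutamine. LINC01138, studied in liver cancer as a partner of the arginine methyltransferase PRMT5, lies on chromosome 1, 148432959 to 148459920, and stood at 3.81, or 3 reads, and at 11.8. The 7 values without glucose thus ran from 3.81 to 158 with a median of 62.0, and the 393 names of all kinds above 0 there had a median of 102.

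The row above 0 without glucose was another than those above 0 without glutamine for 3 of the 7 names, was shared for LINC00886 and LINC01145, and had no counterpart for LINC01828 and LINC02201. Without glucose, each of the 7 names had 1 row above 0. Of these 7 rows, 2 were also above 0 without glutamine, where 79.1% of all rows above 0 without glucose were. Among antisense names it was 9 of 16 such rows, among names of Ensembl ID 22 of 37 and among protein-coding symbols 298 of 359, which make up most of the rows behind the overall share. The 2 were the single row of LINC00886, at 84.7 and 39.5, and a row of LINC01145, at 48.1 and 58.5. LINC00630 had 8 rows with a value, and its row at 158 without glucose was listed at 0 without glutamine, while the other 7, at 1.56 to 85.4, showed the reverse. LINC01123 had 2 rows, 1 at 62.0 without glucose and the other at 44.3 without glutamine, and LINC01138 likewise had 1 at 3.81 and the other at 11.8. For these 3 names the summed values of the libraries come from rows that do not overlap. With 7 rows, the share is a coarse one, and it was not tested.

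**Figure D3:**
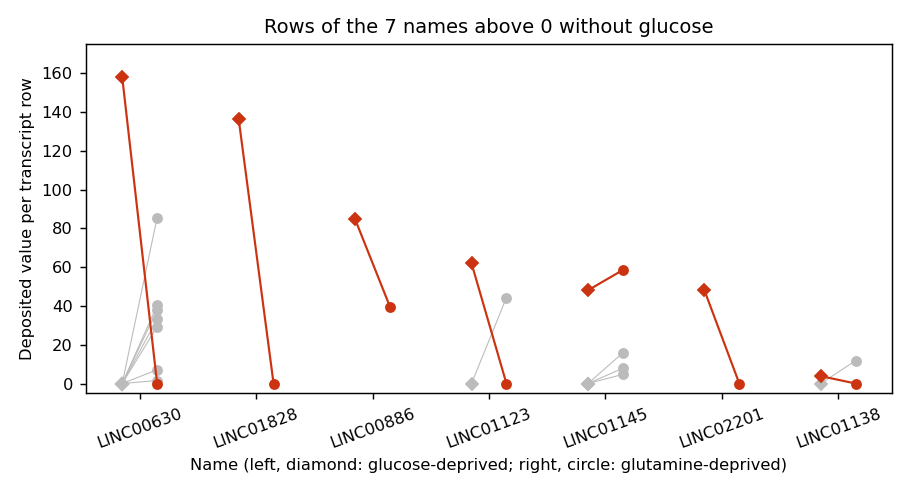
Deposited value of every transcript row of the 7 LINC names above 0 without glucose, in the glucose-deprived (diamond) and glutamine-deprived (circle) library; a line joins the values of 1 row, and red marks the rows above 0 without glucose. Of the 7 red rows, those of LINC00886 and LINC01145 end above 0 and the other 5 end at 0.

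The pair of rows above 0 in both libraries changed order between them, in a comparison chosen after the values were seen. LINC00886 had 67 reads and LINC01145 had 38 in the glucose-deprived library, so LINC00886 took 63.8% of their reads (95% Wilson interval 54.3 to 72.4%). Without glutamine the reads were 50 and 74, and the share was 40.3% (32.1 to 49.1%). These intervals do not overlap, and no scaling of a library alters the shares. They allow for counting error alone and carry no spread between cultures, so they do not show a difference between conditions. No molecular identifiers mark which reads are copies of 1 molecule, so they may be too narrow even for counting error.

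On the log2(value + 1) scale, which understates differences of low names, 245 LINC names had a value at least 2-fold higher without glutamine, where 97.4% of all names were. Of these, 244 were listed at 0 without glucose and LINC01138 was the other. Even the lowest value above 0 without glutamine, 1.56, gives a log2 difference of 1.36 against 0. The 244 therefore passed by being listed at 0 without glucose, and the count repeats which names stood above 0. In the opposite direction 3 LINC names had a value at least 2-fold higher without glucose, where 1.42% of all names were: LINC00886, LINC01828 and LINC02201. The log2 difference of LINC00886 was -1.08, and the other pair was listed at 0 without glutamine, so no fold is given for them. LINC00630, LINC01145 and LINC01123 had log2 differences of 0.57, 0.84 and -0.48. With each library rescaled to 1000000, all 7 names above 0 without glucose passed 2-fold in that direction, and 3 names turned from higher without glutamine to higher without glucose: LINC01138 from 1.42 to -2.65, LINC00630 to -3.82 and LINC01145 to -3.52. With log2 differences centred on the median of all names, the counts of 245 and 3 became 55 and 85. As 7 LINC names stood above 0 without glucose, most of the 85 were listed at 0 there. Those names changed direction only through the constant that centring takes off, so the balance of the directions depends on that constant. The median log2 difference of LINC names was 3.93 and that of all names was 4.32, both mainly set by names listed at 0 without glucose.

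LINC names as a class took a small share of each library. They held 428 of 42827 recovered reads without glucose, or 0.999% (0.909 to 1.10%), and 11661 of 1442570 without glutamine, or 0.808% (0.794 to 0.823%). These 95% Wilson intervals, too, cover counting error only and carry no spread between cultures, so they do not show a difference between conditions. Without XLOC_220679, the most abundant name of both libraries, the shares were 1.15% (1.05 to 1.26%) and 1.32% (1.30 to 1.34%). Which library had the higher share therefore turned with that name. The library without glucose had 33.7-fold fewer recovered reads over all rows and 27.2-fold fewer over LINC rows.

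In the glutamine-deprived library the level of a LINC name was low and its spread wide. The median value was 14.99 (quartiles 7.10 to 36.3), where the median of all names was 20.5. Antisense names had a median of 17.4, names of Ensembl ID 10.3 and protein-coding symbols 31.6. A value of at least 100 was reached by 19 LINC names, or 7.57%, where 15.8% of all names reached it. The 10 highest members held 33.5% of the summed LINC value and the 25 highest held 53.6%, out of 249 above 0.

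LINC00662, studied as a growth-promoting RNA in several tumour types, was the highest member at 638, or 807 reads, and ranked 112 among all names. It lies on chromosome 19, 27790493 to 27793940, 1411380 bases from the nearest protein-coding gene. LINC00824 followed at 348, LINC01035 at 293, LINC00641, studied as a growth suppressor in lung cancer, at 289, and LINC00342 at 283. LINC01341 stood at 282 and LINC00963, first described in prostate cancer, at 270. LINC00641 lies 2247 bases from HNRNPC, whose protein reads m6A-altered RNA structure and whose name stood at 124 without glutamine. LINC01035 lies 1059843 bases from its nearest protein-coding gene, BRINP3. Without glucose, all 7 of these LINC names were listed at 0.

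Further down stood LINC00174 at 246, LINC00630 at 235 and LINC00632, the locus that gives rise to the circular RNA CDR1-AS, at 207. LINC00205 was at 194, LINC01963 at 169, LINC02693 at 161 and LINC03000 at 154. LINC00472, studied as a suppressor in breast cancer, closed the 15 highest at 149. Of these 15, LINC00630 was the 1 above 0 without glucose. XLOC_220679 and other names at higher values were not LINC names.

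**Figure D4:**
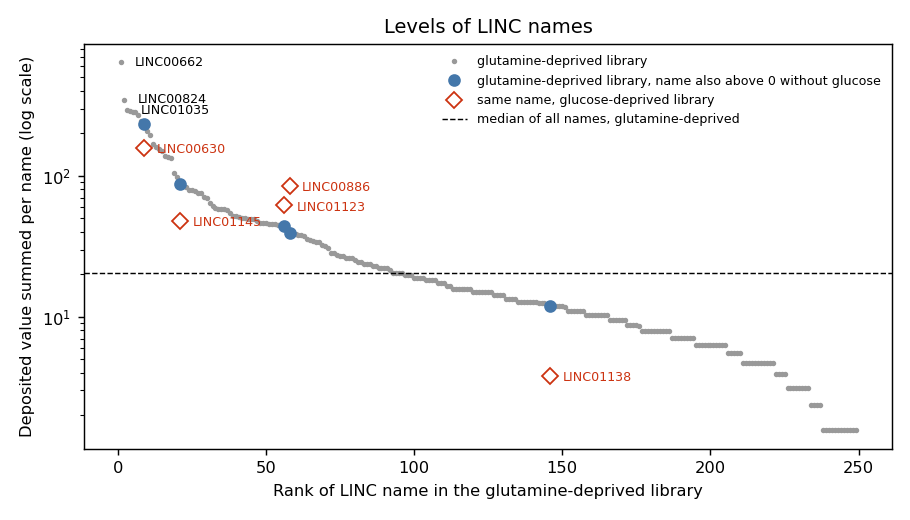
Deposited value summed per LINC name on a log axis, in order of the glutamine-deprived library (grey points, 249 names), with the 5 names above 0 in both libraries in blue and their value without glucose as red diamonds. The black dashed line is the median of all names, 20.5; LINC00662 leads at 638, and the diamonds of LINC00886 and LINC01123 lie above their blue points.

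Most members rested on 1 transcript. Of the 251 names 168 had 1 row with a value, 47 had 2, 15 had 3, 9 had 4 and 12 had more. The share with 1 row was 66.9%, as it was for antisense names, and 60.5% over all names. LINC00662 had the most rows with a value, 14 of its 80 listed rows, from 1.56 to 166. LINC00963 had 12 of 65, LINC03000 10 of 27, LINC00174 9 of 13, LINC00630 8 of 15 and LINC00632 6 of 29. In LINC00662 the highest row held 26.0% of the name's value, the lowest such share among the 81 names with at least 2 rows above 0 without glutamine. The median of that share was 58.4%, and in 64 of the 81 names 1 row held at least 50% of the value. With 2 rows above 0 the higher one holds at least 50% by arithmetic, and most of the 81 names had 2. The count and the median are thus largely set by the number of rows. The lowest possible share falls as rows are added, and LINC00662 had the most. For LINC00641 it held 91.0%, 263 of 289, and for LINC00205 92.7%, 180 of 194.

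**Figure D5:**
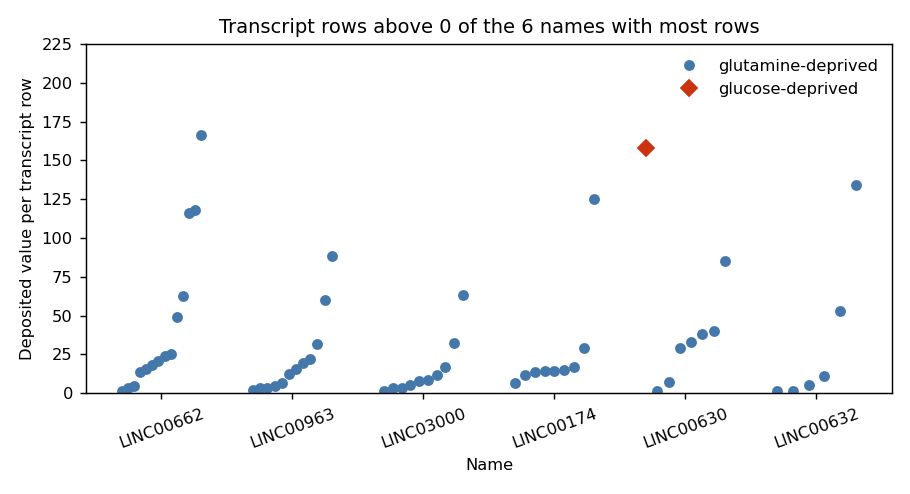
Deposited value of each transcript row above 0 in the glutamine-deprived (blue) and glucose-deprived (red) library for the 6 LINC names with most rows with a value. LINC00662 spreads over 14 rows up to 166, and the 1 red point is the row of LINC00630 at 158.

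Names with many listed rows were seen more often, yet most of the longest lists were blank. A value was found for 54 of the 771 LINC names listed with 1 row, for 9.60% of those with 2 to 5, for 17.5% of those with 6 to 20 and for 26.3% of the 118 with more. Of the 12 LINC names with most listed rows, LINC00662 and LINC00511 had a value, the latter in 2 of 107 rows at a sum of 12.6. LINC00635, with 164 listed rows, had none. By number, 16.7% of the 413 names in the LINC00 series had a value, 11.9% of the 814 in the LINC01 series and 8.30% of the 952 in the LINC02 series. The median values without glutamine were 21.3, 13.4 and 10.3 in that order, and 11, 5 and 2 names reached 100. The LINC03 series did not continue this order: 6 of its 41 names had a value, or 14.6%, with a median of 18.2, and 1 reached 100. The order was not tested.

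By genome position the members were spread over the chromosomes. Shares per chromosome were not taken for chromosomes 8 and Y, which also held members, such as LINC00824 on chromosome 8. Of the 251 names 242 were current symbols in RefSeq, all typed as long non-coding RNA, 5 were older symbols and 4 had no match. Chromosome 1 held most members, 33 of 224 listed names, or 14.7%. A value was found for 8 of 32 listed names on chromosome X. The share was 23.6% on chromosome 7 (13 of 55) and 22.0% on chromosome 19 (9 of 41), and it was 2.94% on chromosome 4 (4 of 136). The span of 26 of the 242 overlapped that of a protein-coding gene, and the other 216 lay at a median of 27726 bases from the nearest one. Among the older symbols LINC00461, at 18.9 without glutamine, is now MIR9-2HG, the host gene of a miR-9 hairpin, and LINC00888, at 11.1, is now SNHG33. LINC02804, at 49.8, is a former name of the protein-coding GPR89B.

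Of 51 LINC names studied in lung cancer, on a list drawn up from general knowledge with earlier results of these data known, 46 were listed and 24 had a value, or 52.2%, beside 11.3% of all LINC names. The list was not matched to all LINC names in listed rows or number series, and its share was not tested. Of the 24, LINC01123 was above 0 without glucose. The median value without glutamine was 28.9, beside 14.99 over all LINC names. The highest were LINC00662, LINC00641, LINC00963 and LINC00472, followed by LINC00942 at 133, LINC01128 at 79.0, LINC00667 at 77.5 and LINC00665 at 69.6. LINC00942 is studied as a partner of METTL14, a subunit of the m6A writer, and LINC00665 as a source of a short peptide. On the deposited scale 23 of the 24, all but LINC01123, had a value at least 2-fold higher without glutamine, beside 245 of the 251 LINC names and 97.4% of all names, so the list's count is near the background.

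Of 16 LINC names studied in sugar or amino acid metabolism 14 were listed and 3 had a value. These were LINC00174 at 246, LINC01123 at 44.3 and LINC00857, studied with glutaminase, at 19.8 without glutamine. LINC01123, at 62.0, was the 1 above 0 without glucose. Of 13 LINC names known for short peptides 3 were listed under that name and LINC00665 had a value.

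The cell type in the labels could be checked only in part, because the rows are headed as long non-coding RNA names. Of 10 epithelial and lung markers 8 were listed and 4 had a value. KRT8 stood at 200 without glucose and 143 without glutamine, and NAPSA at 161 and 18.9. KRT18 and KRT19 stood at 75.1 and 42.6 without glutamine and were listed at 0 without glucose. EPCAM and CDH1 had no value. Of 7 mesenchymal markers 6 were listed, and FN1, VIM and ZEB1 had a value. FN1 stood at 344 without glucose and 963 without glutamine. VIM and ZEB1 stood at 75.9 and 18.9 without glutamine and were listed at 0 without glucose. Of 8 blood, endothelial and liver markers 5 were listed and ALB had a value, at 1.56 without glutamine. Their part in the LINC values was not tested.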

How the data were processed

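RNA of 2 cell cultures was sequenced, 1 library per condition. Per the labels' protocols, total RNA was depleted of ribosomal RNA and read in pairs; the submitters' processing notes name HISAT2 2.0.5, StringTie and hg38. How reads were counted and scaled, and with which annotation and filters, is not stated there, and per the file headers no unit is stated for the deposited values, which are not whole numbers. Values under 1e-09 were set to 0 and rows without a number left out. The 2 value columns of the table covering the whole series repeat these values and were left out. A line through the low values gave steps of 1.264 and 0.791 and offsets of 0.022 and -0.018 in the glucose-deprived and glutamine-deprived library; 472 and 18536 values up to 1000 reads were whole within 0.1 of a read in 100% of cases. The fitting was also run on simulated whole reads with a known step and offset. That checks the code and cannot show whether the deposited values are scaled reads. Values were summed per name; log2 differences used a pseudocount of 1. Without replicates there was no test and no p-value. Recovered reads of listed transcripts came to 42827 and 1442570, and how many reads each whole library had is unknown. If the values were already brought to a common library size, which the near-reciprocal steps leave possible, rescaling to equal sums would undo that scaling.

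Named genes were all LINC names above 0 without glucose, the 15 highest without glutamine, the 6 with most rows and up to 8 of each list. Members behind counts of 5 or fewer were named only in part. Others were chosen after their values were seen (LINC00511, LINC00635 and the older symbols). Members and lists were chosen with earlier results of these data known. Names and windows came from RefSeq GRCh38.p14, with the most upstream window per gene; hg38 is the same assembly. Alternatives were other pseudocounts, minimums, scalings and thresholds, current symbols only, the highest transcript per name, and leaving out the most abundant name. Python 3.11.15, pandas 2.3.3, numpy 2.4.6 and scipy 1.17.1 were used.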

Additional observations from a re-analysis of the deposited data

How the results depend on the processing

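With 1 library per condition no replicate could be left out, and no LINC name ended in -AS, so including such names changed nothing. No paired analysis was possible because each condition has 1 library. The counts of LINC names above 0 stayed within 1.5 times under both alternatives run, 6 to 7 without glucose and 210 to 249 without glutamine. Without the most abundant name the LINC share of summed values went from 0.999% to 1.15% without glucose and from 0.808% to 1.32% without glutamine; with the highest transcript of each name only, the latter was 0.680%. Of the 2-fold counts, centring on the median of all names turned 245 and 3 into 55 and 85, and rescaling to 1000000 turned the 3 into 7; under the other alternatives run they were 206 to 245 and 2 to 3. With the highest transcript only, the log2 difference of LINC00630 went from 0.57 to -0.88 and that of LINC01145 from 0.84 to 0.28. By their construction centring lowers each log2 difference by 4.32, and rescaling shifts it by up to -4.40. Most of the 85 names counted after centring were listed at 0 without glucose, where 7 LINC names stood above 0. LINC01138, at 1.42 as deposited, was at -2.65 after rescaling and -2.90 after centring; it rests on 3 reads without glucose. The few reads recovered without glucose, 428 over LINC rows, limit what can be said of names listed at 0 there.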
